A study of Homo sapiens with 26 samples.

Results

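The genes described here are 32 genes of sterol and fatty acid synthesis that stand under the SREBP transcription factors. They were taken from a list of names, chosen with earlier results of these data known, and not by a threshold on measured values. They comprise 5 regulators, 19 enzymes and carriers of the cholesterol pathway and 8 enzymes of fatty acid synthesis. All 32 names were found among the 55353 gene rows of the input RNA tables, and 24 of them had at least 50 counts in the input libraries together and are given with a ratio. RNA came from SK-MEL-28, a human melanoma line, either without salubrinal (the control) or after 72 h of it. That compound keeps the translation factor eIF2α phosphorylated, a state that sets off the integrated stress response (ISR). There was 1 input library per treatment, from total RNA, so no test of the treatment was possible there. The other 24 samples were sucrose gradient fractions of the same line (40S, 60S, 80S and polysome, 3 replicates per fraction and treatment). The labels give cycloheximide, which halts ribosomes on mRNA, at 100 µg/mL for 12 min for all samples, input and controls included. The cell line field of the labels numbers most samples differently, and the titles, which all name SK-MEL-28, were followed.

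SREBPs are made as precursors in the membrane of the endoplasmic reticulum, where SCAP escorts them and the INSIG proteins hold the complex back while sterol is plentiful. When sterol runs low the complex moves to the Golgi, proteases release the active domain, and it switches on genes of cholesterol and fatty acid synthesis, including SREBP genes themselves and INSIG1. SREBP2 is known mainly for the cholesterol pathway and SREBP1 mainly for fatty acid synthesis. Promoters of such targets commonly carry a sterol regulatory element near a CCAAT box, which nuclear factor Y binds.

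To show what these genes share in sequence, the 160 bases before the annotated start are printed for SREBF2, which encodes the sterol regulator, for HMGCS1 near the head of the pathway, and for MVD, MSMO1 and DHCR7, the cholesterol genes past the 2-fold level described below. SREBF2 was taken by rule, as the member with the sterol regulatory element core TCACNCCAC, and the others were chosen after their values were seen. Sequences are RefSeq's for the human build GRCh38.p14, 5′ to 3′ on the strand of the gene, with capitals marking CCAAT, its reverse complement ATTGG, and TCACNCCAC.
SREBF2, chr22:41832945-41833104, plus strand: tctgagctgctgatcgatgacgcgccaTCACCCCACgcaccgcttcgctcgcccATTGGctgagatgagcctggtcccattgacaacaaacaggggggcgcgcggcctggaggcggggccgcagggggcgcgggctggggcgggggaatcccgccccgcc
HMGCS1, chr5:43313413-43313572, minus strand: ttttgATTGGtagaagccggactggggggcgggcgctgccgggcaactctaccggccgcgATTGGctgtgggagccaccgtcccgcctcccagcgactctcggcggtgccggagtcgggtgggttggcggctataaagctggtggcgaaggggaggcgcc
MVD, chr16:88663092-88663251, minus strand: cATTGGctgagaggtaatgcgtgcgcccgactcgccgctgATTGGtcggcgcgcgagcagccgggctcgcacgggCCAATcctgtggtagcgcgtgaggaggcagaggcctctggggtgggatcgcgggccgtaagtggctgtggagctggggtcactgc
MSMO1, chr4:165327509-165327668, plus strand: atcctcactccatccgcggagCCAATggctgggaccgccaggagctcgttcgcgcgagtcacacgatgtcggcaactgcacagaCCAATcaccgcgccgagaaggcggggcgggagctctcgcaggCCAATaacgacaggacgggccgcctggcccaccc
DHCR7, chr11:71448394-71448553, minus strand: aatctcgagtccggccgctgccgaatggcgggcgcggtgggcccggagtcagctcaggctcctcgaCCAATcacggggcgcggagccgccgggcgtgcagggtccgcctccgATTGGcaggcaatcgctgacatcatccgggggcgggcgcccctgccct

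In the SREBF2 window the sterol element core lay 133 to 125 bases before the start and the CCAAT box, read on the other strand, 106 to 102 bases before it. MVD and MSMO1 held 3 CCAAT boxes each in these windows, and HMGCS1 and DHCR7 2 each. HMGCS1 and DHCR7 have a second annotated start in the table, whose promoter held none. Over the whole 300-base promoters in the RefSeq table, searched on both strands, a CCAAT box stood in at least 1 promoter of 14 of the 16 cholesterol genes listed there (87.5%), of 4 of 6 fatty acid genes and of 2 of 5 regulators. The share was 42.1% of 15843 protein-coding genes. TCACNCCAC stood in 1 of 27 listed members, against 1.51% of protein-coding genes. A match is a description of letters and not a measured site, and these windows come from the annotation and not from the libraries.

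Gene rows of the salubrinal library summed to 10245548 counts and those of the control library to 12068784. Rows of the input tables carry mouse-style symbols, printed here as the files give them, and 30612 of the 55353 have mouse Gm-number or Rik names. The submitters' notes list build hg19, and which reference the input reads were counted on is not stated. A low count thus need not mean low expression, and levels of different rows are not compared. Melanocyte genes were present, with 13535 and 16793 counts on Pmel in the salubrinal and control libraries and 732 and 1236 on Sox10, while Mlana stood at 0 in both and Tyrp1 at 0 and 5. Of 6 measured melanocyte genes 4 were at least 2-fold lower with salubrinal, against 3.80% of all rows with at least 50 counts. The summed markers of fibroblasts, keratinocytes and blood cells ran from 3.33 to 6.20 CPM (counts scaled to a common library size) in either library. Col1a1, Krt1, Trp63 and Cd3e were at 0 in both. Others had counts with salubrinal and without: Cd68 60 and 49, Lum 43 and 42, Krt10 43 and 23, and Krt14 20 and 3. As Mlana was also at 0, these zeros do not show that a cell type was absent. All 6 listed ISR genes were at least 2-fold higher, against 2.75% of all rows, among them Atf4 with 6808 and 1184 counts. They were listed with earlier results of these data known, so this was not an open check of the treatment.

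With salubrinal, the input levels of sterol and fatty acid synthesis genes were mostly below those of the control. Of the 24 measured members 9 (37.5%) had levels lower by 2-fold or more, and 0 had levels higher by as much. The share of all 10614 rows meeting the minimum of 50 counts was 3.80% for the lower and 2.75% for the higher direction. As the members were chosen with earlier results of these data known, the contrast with all rows is a description and not independent support. The median log2 ratio of salubrinal over control was -0.77 for the members and 0.02 for all rows, and 22 of the 24 members lay below the median of all rows. Summed over all 32 members the level was 548 CPM with salubrinal and 909 CPM without. Ratios are of counts scaled by trimmed means (TMM) with a prior count of 2. The 95% intervals given with them are exact conditional binomial ones that cover counting error and not the spread between cultures, and molecules copied by PCR are not independent. The interval lay wholly below 0 for 17 members, held 0 for 6 and lay wholly above 0 for 1. In bulk RNA, fewer expressing cells and less RNA per cell cannot be told apart.

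**Figure D1:**
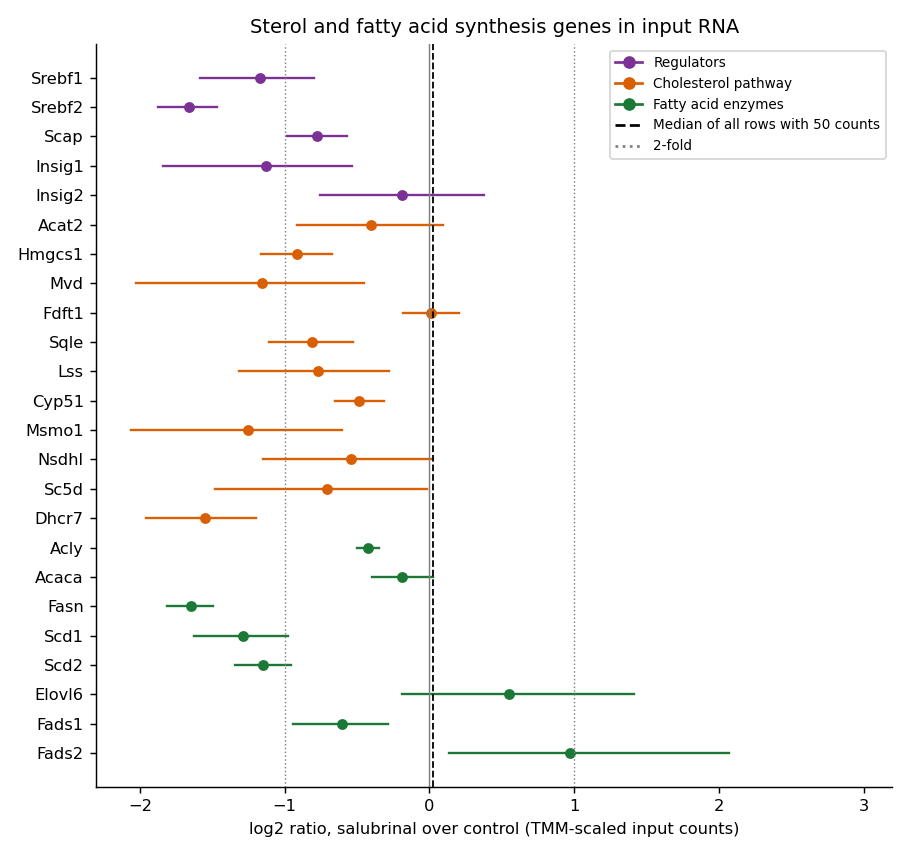
Log2 ratio of salubrinal over control in input RNA for the 24 genes with at least 50 counts, in order of role and pathway step; points are ratios of TMM-scaled counts, bars are 95% binomial intervals for counting error, and there is 1 library per treatment. All 5 regulators and 10 of 11 cholesterol genes lie left of 0, and Fads2 and Elovl6 lie to the right.

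The scaling sets where 0 lies. The row CT010467.1 held 12.8% of the salubrinal and 56.7% of the control gene-row counts, and the share of all counts not aligned was 27.3% and 14.4%; the part of these differences in the results was not tested. Scaling by total gene-row counts, which that row enters, moved the median of all rows up by 0.93. Under it 9 of the 24 members were below 0 and 15 above it, in place of 21 and 3. Relative to the median of all rows, a centring added after the data were seen, 9 members were at least 2-fold lower under either scaling. A change of scaling moves all rows by nearly the same amount and centring takes it out, so that agreement was fixed in advance. Ratios below are those of TMM unless they compare member rows with each other.

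Among the regulators, Srebf2 had the lowest ratio, with an interval that overlapped those of Srebf1 and Insig1. Srebf2 encodes SREBP2 and had 309 counts with salubrinal and 603 without, or 21.8 and 69.2 CPM. Its level was 3.16-fold lower, a log2 ratio of -1.66 (95% interval -1.87 to -1.47), and 0.575% of all rows lay lower. Srebf1, which encodes SREBP1, had 95 and 133 counts, 6.69 and 15.3 CPM, and a ratio of -1.17 (-1.59 to -0.80). Both SREBP rows were thus past 2-fold, and Srebf2 was the lower of the pair also when counts of one row were set against the other within a library. Srebf2 had 3.25 counts per Srebf1 count with salubrinal and 4.53 without, a log2 difference of -0.48 (-0.92 to -0.03) that no scaling enters.

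The escort and retention genes differed from each other. Scap, the sterol-sensing escort, had 370 and 389 counts and a log2 ratio of -0.77 (-0.99 to -0.57). Insig1, the retention gene that SREBP itself induces, had 36 and 50 counts and was 2.18-fold lower, at -1.13 (-1.84 to -0.53). Insig2, the retention gene known to be less dependent on SREBP, had 67 and 47 counts and a ratio of -0.19, with an interval of -0.75 to 0.38 that holds 0. Insig1 counts per Insig2 count were 0.537 with salubrinal and 1.06 without, a log2 difference of -0.99 (-1.86 to -0.11). The median of the 5 regulators was -1.13.

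The cholesterol pathway was lower along most of its length, with a median of -0.77 over 11 measured genes and 3 of them past 2-fold. At its head, Acat2, which makes acetoacetyl-CoA, had 76 and 62 counts and a ratio of -0.40 (-0.91 to 0.10). Hmgcs1, the HMG-CoA synthase, had 264 and 306 counts, 18.6 and 35.1 CPM, and a ratio of -0.91 (-1.16 to -0.68). The kinases and the isomerase that follow had few counts. Mvk had 6 with salubrinal and 27 without, Pmvk 23 and 26, and Idi1 21 and 27. Mvd, the decarboxylase between them, reached the minimum with 25 and 36 counts and was 2.23-fold lower at -1.15 (-2.03 to -0.45). Fdps, the farnesyl diphosphate synthase, had 0 counts in both libraries, which allows up to 3 counts in each and no ratio.

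The squalene steps did not move together. Fdft1, the squalene synthase that commits the pathway to sterols, had 571 and 348 counts, which is 40.2 and 40.0 CPM and a ratio of 0.01 (-0.19 to 0.21). Sqle, the epoxidase that acts next, had 195 and 211 counts and a ratio of -0.81 (-1.11 to -0.53). Counts of Sqle per Fdft1 count were 0.342 with salubrinal and 0.606 without, a log2 difference of -0.83 (-1.18 to -0.48). Lss, which folds the squalene chain into lanosterol, had 63 and 67 counts and a ratio of -0.77 (-1.31 to -0.28). Fdft1 was thus nearly equal in the libraries while the measured steps after it, Sqle and Lss, were lower.

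After lanosterol, Cyp51, the sterol demethylase of the cytochrome family, had 624 and 536 counts and a ratio of -0.48 (-0.65 to -0.32). Msmo1, which oxidises the methyl groups of the ring, had 28 and 43 counts and was 2.38-fold lower at -1.25 (-2.06 to -0.60). Nsdhl, the dehydrogenase that works with it, had 54 and 49 counts and a ratio of -0.54 (-1.15 to 0.02). Sc5d, a late desaturase, had 33 and 34 counts and a ratio of -0.71 (-1.48 to -0.01). Dhcr7, the reductase of the last step to cholesterol in one branch of the pathway, had 92 and 168 counts, 6.48 and 19.3 CPM. It was 2.92-fold lower at -1.55 (-1.96 to -1.20), the lowest ratio of the pathway among genes with at least 50 counts. Set against Fdft1 within each library, Dhcr7 had 0.161 counts per Fdft1 count with salubrinal and 0.483 without, a log2 difference of -1.58 (-2.01 to -1.16).

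The other cholesterol members stayed under the minimum of 50 counts. Tm7sf2, a sterol reductase, had 1 count with salubrinal and 3 without, Hsd17b7, a ketoreductase, 25 and 17, and Ebp, the sterol isomerase, 23 and 19. Stard4, which carries cholesterol between membranes, had 21 and 27. In CPM all of the 7 members under the minimum that had counts were lower with salubrinal, from Mvk, at 0.423 against 3.10, to Hsd17b7, at 1.76 against 1.95. The intervals of Tm7sf2, Hsd17b7 (-1.09 to 0.83) and Ebp (-1.37 to 0.53) held 0. Hsd17b7 and Ebp had more raw counts with salubrinal and were lower only after scaling. With a minimum of 20 counts, 30 members were measured and 10 were at least 2-fold lower, the added gene past 2-fold being Mvk. Of all 12580 rows with at least 20 counts, 4.83% were as much lower.

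**Figure D2:**
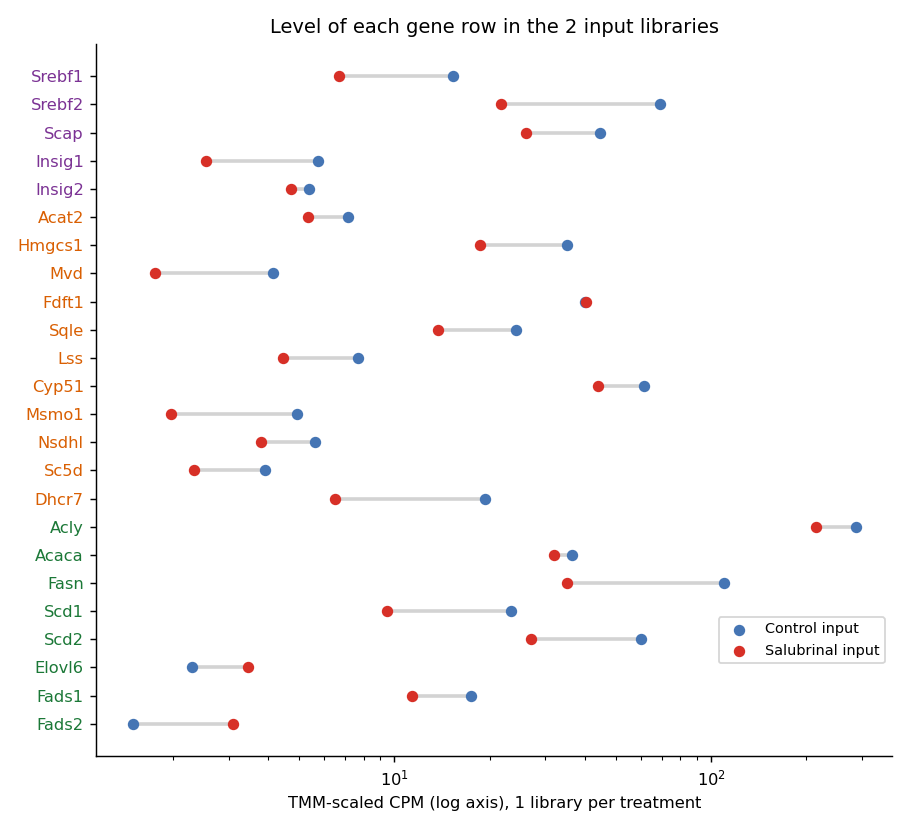
TMM-scaled CPM on a log axis for the same 24 genes in the control and the salubrinal input library, joined by a grey line, with 1 library per treatment and gene names coloured by role. Srebf2, Dhcr7 and Fasn have the longest lines to the left, while the points of Fdft1 coincide at 40.0 and 40.2 CPM.

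The fatty acid enzymes divided by step. Acly, which makes cytosolic acetyl-CoA from citrate, was the member with the most counts, 3040 and 2503, and had a log2 ratio of -0.42 (-0.50 to -0.35). Acaca, the acetyl-CoA carboxylase, had 454 and 317 counts and a ratio of -0.19 (-0.40 to 0.02). Fasn, the synthase that builds palmitate, had 497 and 958 counts, 35.0 and 110 CPM, and was 3.13-fold lower at -1.65 (-1.81 to -1.49). Fasn thus had a lower log2 ratio than the enzymes that supply it. Its counts per Acaca count were 1.09 with salubrinal and 3.02 without, a log2 difference of -1.46 (-1.73 to -1.20), and its counts per Acly count 0.163 and 0.383, a difference of -1.23 (-1.40 to -1.05).

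The desaturase rows of the SCD family were lower, and the long-chain genes went in both directions. Scd1, named for the desaturase that makes oleate, had 135 and 204 counts and a ratio of -1.28 (-1.63 to -0.98), and Scd2, its mouse paralog, 383 and 522 counts and -1.15 (-1.35 to -0.96). Reads shared by these like rows may be placed on either, so both rows need not count as separate results among the members past 2-fold. Their ratio to each other was alike in the libraries, with a log2 difference of -0.15 (-0.53 to 0.23). Fads1, a desaturase of polyunsaturated chains, had 162 and 152 counts and a ratio of -0.61 (-0.94 to -0.28). Fads2, its neighbour gene and the desaturase that acts before it, had 44 and 13 counts and a ratio of 0.97 (0.14 to 2.07). Fads2 was the member with the highest ratio, and its counts per Fads1 count differed by 1.67 on the log2 scale (0.68 to 2.74). Elovl6, which lengthens palmitate, had 49 and 20 counts and a ratio of 0.55 (-0.19 to 1.42). The median of the 8 fatty acid genes was -0.51, with 3 past 2-fold lower.

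Other genes of lipid metabolism, taken from lists written beside the members with earlier results of these data known, had medians nearer to that of all rows. Of 15 measured genes that process, retain or degrade SREBP and its partners, 1 was at least 2-fold lower and 0 higher, with a median of 0.11; the lower was Tmub1 at -1.28. The median of 18 further cholesterol genes (synthesis, uptake, esterification and transport) was 0.02, with 1 at least 2-fold lower and 0 higher. These 18 went in both directions, with 8 below 0 and 10 above. Of 6 measured genes of the oxysterol receptor LXR and of sterol efflux 1 was lower and 0 higher, with a median of -0.33. That gene was Scarb1, a lipoprotein receptor, at -1.21. Abca1, an LXR target that exports cholesterol, had 41 counts with salubrinal and 5 without, below the minimum. Its interval of 0.99 to 4.03 lay above 0. Abca1 was named after its counts were seen and does not stand for its list, whose 6 measured rows were all below 0.

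Genes that feed, extend or esterify fatty acids had a median of -0.31 over 22 measured, with 17 of them below 0. Of these 22, 0 were at least 2-fold lower and 1 was higher, Me1, an enzyme that supplies NADPH, at 1.00 (0.70 to 1.34). Genes of fatty acid oxidation had a median of 0.20 over 15, with 0 lower and 1 higher, Decr1, a mitochondrial reductase, at 1.05 (0.62 to 1.55). The medians of these lists ran from -0.33 to 0.20, against -1.13 to -0.51 in the groups of members.

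**Figure D3:**
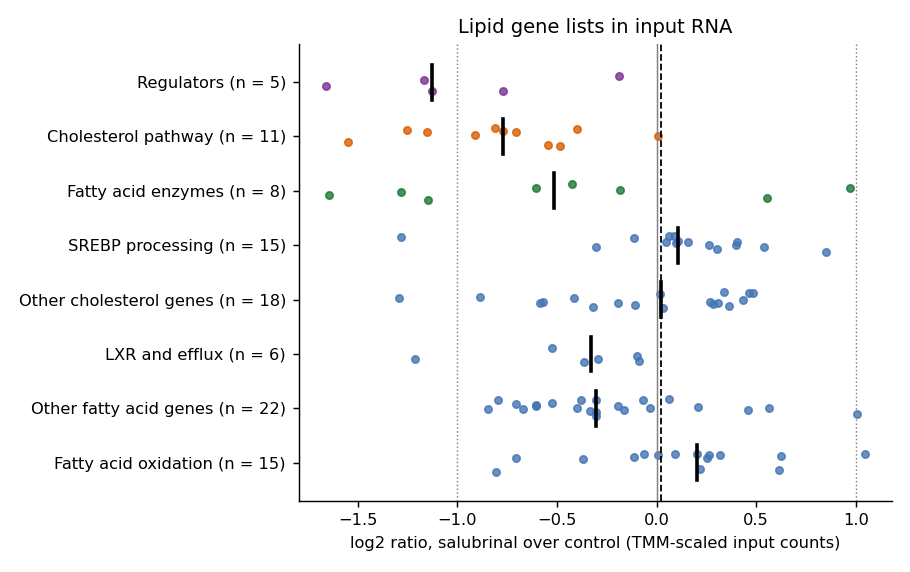
Log2 ratio of salubrinal over control in input RNA for each gene with at least 50 counts, by list; black bars are list medians, the dashed line is the median of all rows and dotted lines mark 2-fold. The regulator, cholesterol and fatty acid medians are -1.13, -0.77 and -0.51, and that of fatty acid oxidation is 0.20.

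**Figure D4:**
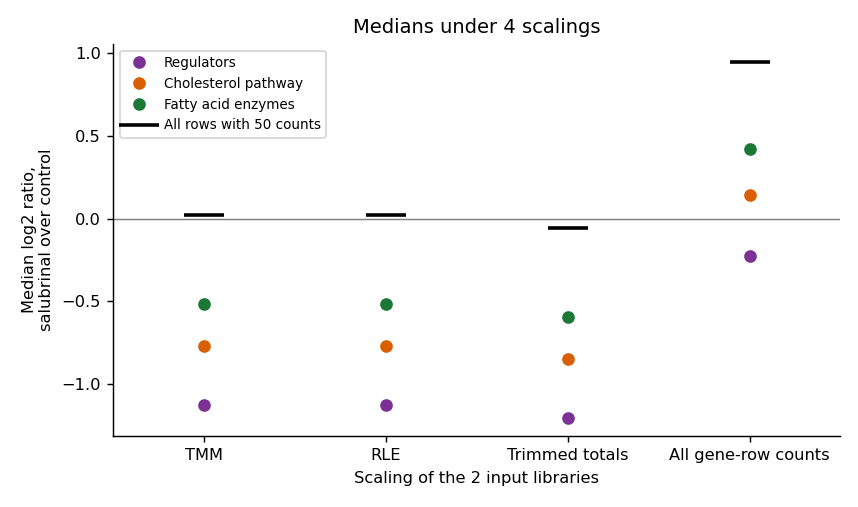
Median log2 ratio of salubrinal over control for the 3 groups of members and for all rows with at least 50 counts, under 4 scalings of the input libraries (TMM, RLE size factors, totals without the top row, mitochondrial and rRNA rows, and all gene-row counts). With all gene-row counts the cholesterol and fatty acid medians are 0.14 and 0.42, and the median of all rows is 0.95. A change of scaling moves all rows by nearly the same amount, so the order of the groups and all rows could hardly change.

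The gradient libraries held few reads of these genes. Fraction files have human symbols, and 31 of the 32 members were matched to a row by name, Scd2 having been given none. Between 864 and 23679 counts per file lay outside ribosomal RNA rows. Over all 24 files 14 of the 31 rows had 0 counts, among them SREBF2, SCAP, HMGCS1 and FASN, 14 had 1 to 8 counts, and 3 had more than 10. A row at 0 could still hold up to 3 counts' worth of signal over these files, so no level can be read from it.

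Outside ribosomal RNA rows the 4 fraction files of a replicate number held the same counts within sampling noise, with chi-square per degree of freedom of 0.937 to 1.03 in 6 sets once the control 40S files titled replicates 1 and 2 were exchanged. They were therefore counted as 6 libraries, and values below are sums over 4 files. The ACAT2 row had 1, 1 and 44 counts in the salubrinal libraries and 28, 6 and 43 in the control libraries. FADS2 had 0, 0 and 12 against 15, 0 and 13, and SREBF1 had 0, 0 and 3 against 9, 1 and 11. The treatments overlapped for all of these rows, with salubrinal library 3 holding nearly all treated counts. These counts are not scaled for depth. Outside ribosomal RNA rows, the 60S files of salubrinal libraries 1, 2 and 3 held 2452, 965 and 18686 counts. The 60S files of control libraries 1, 2 and 3 held 21833, 5722 and 23679. ACAT2 overlaps SOD2 and TCP1 in the annotation, whose own rows held 68 and 51 counts, and FADS2 overlaps FADS1, whose row held 7; reads of overlapping genes cannot be told apart without knowledge of the strand setting.

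**Figure D5:**
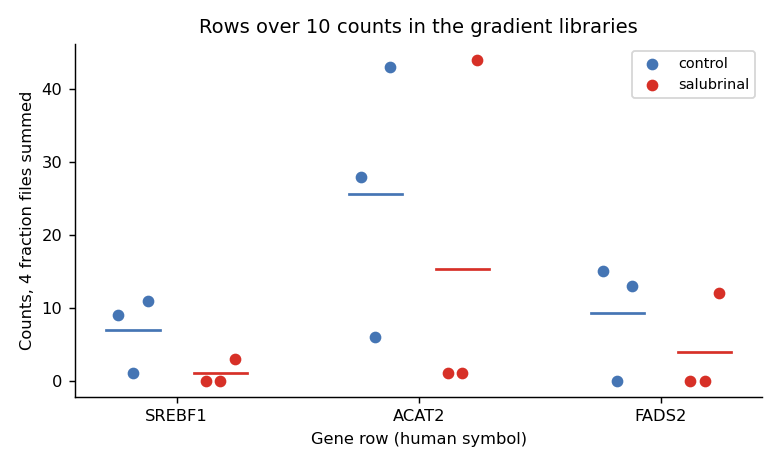
Counts of the 3 member rows with more than 10 counts in the gradient files, with the 4 fraction files of each library summed; each point is 1 library, 3 per treatment, and bars are means. Salubrinal libraries 1 and 2 hold 0 or 1 count of each row, and the treatments overlap. Counts are not scaled for depth, and salubrinal libraries 1 and 2 had the fewest counts outside ribosomal RNA rows.

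In the edgeR comparison of 3 salubrinal with 3 control files per fraction, 0 of the 31 rows passed the filter on low counts in the 40S, 60S, 80S or polysome files, so no member was tested there. The share of tested rows called there was 8.0, 9.83, 12.7 and 3.73%. Without the filter DESeq2 tested 10 to 13 member rows per fraction and called 0 of them and 0 of all rows, with 0 at an unadjusted p under 0.05. In the 6 summed libraries, a comparison added after the data were seen in which 5.70% of 913 rows were called, ACAT2 had a log2 fold change of 0.59 (edgeR adjusted p = 0.449) and FADS2 one of 0.17 (adjusted p = 0.930). With the files as titled 10.4% of 856 rows were called, and ACAT2 had 0.67 (edgeR adjusted p = 0.294). Both folds are positive although raw counts were lower with salubrinal, since they are relative to TMM-scaled library sizes.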

How the data were processed

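The deposited values are raw read counts per gene row, left unscaled by the authors. A stranded total RNA kit was used, per the labels' protocols. The submitters' processing notes list build hg19 and the programs DESeq, FastQC 0.11.5, HTSeq 0.5.3p3, SAMtools 0.1.19.24 and STAR. The strand setting, and the reference behind the mouse-style input rows, were not given in the sources used here. Lines without a gene name stayed out of every total: gene rows held 7.06% of all counts in the salubrinal input, 5.94% in the control input and 4.72 to 5.79% in fraction files.

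For input, TMM-scaled counts were divided after adding a prior count of 2, over rows with at least 50 counts in both libraries together, with exact conditional binomial 95% intervals and no test. Ratios between member rows, chosen after values were seen, carry exact conditional odds ratio intervals. Fractions were compared with edgeR 4.0.16 (filterByExpr, TMM, quasi-likelihood test, Benjamini-Hochberg threshold 0.05) in R 4.3.3, with DESeq2 1.42.0 as an alternative. Since no label calls the replicates separate cultures, p-values cover the spread of these samples alone, which may be technical. Both procedures were tested on simulated data. Promoters came from RefSeq (GRCh38.p14), used for sequence, names and overlaps.

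All 32 members are accounted for. Genes of other lists are named when past 2-fold (at most 3 in each direction), and Abca1 was named after its counts were seen. The single genes of the further cholesterol list are not reported here. The members and lists were chosen with earlier results of these data known.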

Additional observations from a re-analysis of the deposited data

How the results depend on the processing

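RLE size factors and totals without the top row, mitochondrial and rRNA rows left 9 members at least 2-fold lower. Of all rows, 3.79% were as much lower under the first and 4.81% under the second. Scaling by total gene-row counts gave 0 lower and 2 higher, with medians of 0.15 for all members, -0.23 for regulators, 0.14 for cholesterol genes and 0.42 for fatty acid genes, and 4830 of 10614 rows higher and 30 lower against 292 and 403. No member past 2-fold changed sign under it. That was nearly fixed in advance, since a shift of about 0.93 cannot bring a log2 ratio of -1 or lower past 0. A prior count of 0.5 gave 1 member at least 2-fold higher, Fads2, against 3.03% of all rows. A prior count of 10 gave 7 lower, against 2.72% of all rows. A minimum of 200 counts gave 6 of 14 members lower and a fatty acid median of -0.88, since Fads2 and Elovl6 dropped out. Over all rows it gave 141 higher and 170 lower of 6851, and a minimum of 20 gave 480 and 608 of 12580. In the fractions few members could be tested, so the absence of calls says nothing about stability: edgeR with its filter tested 0 to 1 member rows per fraction (2 in the summed files), and edgeR without the filter and DESeq2 tested 10 to 13. The replicate block tested 0 to 1 and called 0. Same-numbered libraries correlated from -0.29 to 0.55, the lowest value being from the 40S files with control numbers as titled. In the 60S files the values were 0.002, 0.35 and 0.52 for replicates 1, 2 and 3. Whether the numbers are pairs was not settled, and the main comparison did not use them. Leaving out 1 replicate tested 0 to 1 members and called 0, with 0 to 47 of all rows called. The block called 1 to 6 rows of all tested, against 9 to 27 without it. Precision is limited by 1 input library per treatment and by counts under 50 on 8 members.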
